A study of Mus musculus with 30 samples.

Results

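Mir221 and Mir222 are the precursor genes of a pair of microRNAs that lie next to each other on the X chromosome and are made from 1 primary transcript. They were taken by symbol, and the 2 rows were present in the tables of all 5 organs, out of 2194 named features per table, 1189 of which carry microRNA symbols. A microRNA is a short RNA that guides a silencing complex to messenger RNAs through its seed, bases 2 to 8 of the mature strand. miR-221 and miR-222 are known to repress the cell cycle inhibitors p27 (Cdkn1b) and p57 (Cdkn1c) and the receptor Kit. In vessel walls they are known for promoting growth of smooth muscle cells and restraining that of endothelial cells, and in red cell precursors their decline accompanies maturation.

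Small RNA was sequenced from whole brain, heart, kidney, liver and spleen of 6 untreated male mice aged 4 months, of which 3 were Ftsj1-deficient (Ftsj1_DF) and 3 wild type (WT). Ftsj1 encodes a 2'-O-methyltransferase of tRNA and, like the pair, lies on the X chromosome, so a male carries 1 copy. Of the mice, 4 were brothers, 2 of each genotype, and the other 2 were brothers of each other, 1 of each genotype. The labels do not say which part of Ftsj1 is altered, and its mRNA is not counted in these small RNA tables, so the genotypes could not be checked here. Each organ gave 6 libraries, 3 per genotype and 30 in all, and the authors' deposited table of an organ holds the mean of its 6 libraries and 1 fold change between the genotypes, with no value per library. The tables do not name the genotype in the numerator. Here the numerator's 3 libraries form the positive side and the remaining 3 the negative side, and comparisons of sign between organs assume 1 numerator throughout. Summed mean normalized counts ran from 8511372 in heart to 21787131 in kidney. Summed over its list, the marker microRNAs of each organ were highest in the organ named by the label. The sums ran from 26.2% of the total for the hepatocyte microRNA Mir122 in liver to 1.47% for leukocyte microRNAs in spleen. The kidney tubule microRNAs stood at 19.9% in kidney but also at 14.6% in liver, so they set these organs less clearly apart. That sum does not show that each of the 5 listed members was higher in kidney. Mir9-1, Mir1a-2, Mir142 and Mir451a, which belong to such lists, are listed at 0 throughout. A second sequencing batch supplied 1 WT library each for heart, kidney and liver, which could not be told from the others in these values.

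The mature strands show what the pair shares. RefSeq places Mir221 at chrX:19146294-19146388 and Mir222 at chrX:19146893-19146971 of GRCm38.p6, both on the minus strand and 504 bases apart, while the authors counted on GRCm39. In the next lines the capitals mark the seed.
miR-221-3p: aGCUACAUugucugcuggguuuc
miR-222-3p: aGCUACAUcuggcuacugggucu
miR-221-5p: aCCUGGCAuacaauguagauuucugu
miR-1928: aGCUACAUugccagcuc
The first 8 bases of miR-221-3p and miR-222-3p are identical, and 11 of their 23 positions match in a count that allows no gap or shift. Of 1738 mature mouse strands in the sequence table, 3 carry this seed, the other being miR-1928. Mir1928, encoded on chromosome 1, had 8 reads in 1 kidney library of the negative side and is listed at 0 in the other 4 organs. The hairpins, shown next because the tables count reads per precursor and not per strand, carry the strands of the lines above in capitals, and miR-222-5p is not marked.
Mir221 hairpin: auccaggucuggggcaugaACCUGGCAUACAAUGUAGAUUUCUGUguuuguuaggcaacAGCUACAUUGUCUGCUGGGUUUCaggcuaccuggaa
Mir222 hairpin: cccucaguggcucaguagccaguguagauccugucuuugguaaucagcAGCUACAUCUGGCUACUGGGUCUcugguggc
The Mir221 hairpin has 95 bases and that of Mir222 has 79, and their 3p strands have the same length of 23 bases.

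Both precursors were detected well in every organ, with the highest share of the total in brain and the lowest in liver. In the authors' deposited tables Mir221 averaged 20863 normalized counts in brain, 25160 in kidney, 6972 in spleen, 5904 in heart and 9945 in liver. In the authors' deposited tables Mir222 averaged 32902 normalized counts in brain, 23926 in kidney, 5023 in spleen, 3344 in heart and 4086 in liver. Each table was normalized separately, so levels between organs were set as shares of the summed means, in parts per 1000000 (ppm), and they are a description with no test. The spread beside each share is the standard deviation between libraries of 1 side that the authors' standard error implies. Gaps given in standard errors treat the organs as independent, although the organs come from the same mice.

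Mir221 stood at 1294 ± 356 ppm in brain, 1155 ± 297 ppm in kidney, 694 ± 118 ppm in heart, 649 ± 118 ppm in spleen and 525 ± 113 ppm in liver (SD, n = 6 libraries each). Brain and kidney, neighbours in that order, differed 1.12-fold, or 0.741 standard errors of the difference, and heart and spleen differed 1.07-fold, or 0.649 standard errors. Spleen and liver, at the low end, differed by 1.85 standard errors, and the step between kidney and heart, 1.66-fold, was 4.04 standard errors. Heart and liver, which are not neighbours, differed 1.32-fold, or by 2.48 standard errors, and the total span between brain and liver was 2.47-fold. That span was narrow: of the 326 features with a mean of at least 10 in all organs, 95.4% of the others had a wider one, and the median was 15.0-fold.

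Mir222 stood at 2041 ± 413 ppm in brain, 1098 ± 339 ppm in kidney, 468 ± 84.2 ppm in spleen, 393 ± 73.4 ppm in heart and 216 ± 59.3 ppm in liver (SD, n = 6 libraries each). Its share in brain was 1.86 times that in kidney, a gap of 4.12 standard errors, and kidney was 2.35 times spleen, a gap of 5.85. Spleen and heart differed 1.19-fold, or by 1.64 standard errors, while heart was 1.82 times liver, a gap of 4.41. The span between brain and liver was 9.46-fold, wider than that of Mir221 but not wide among the measured features, of which 58.2% exceeded it.

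**Figure D1:**
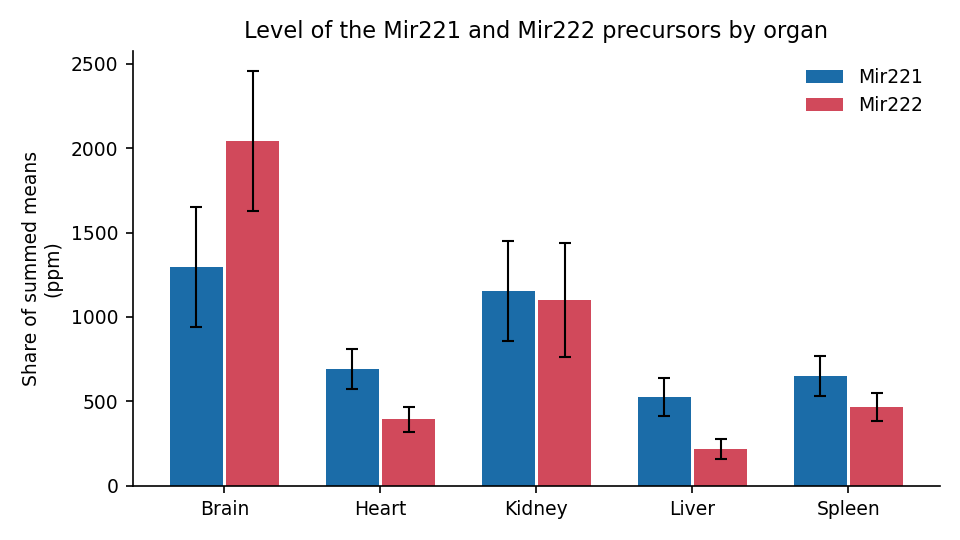
Share of each precursor in the summed mean normalized counts of an organ (vertical axis, ppm; bars from 0), for Mir221 and Mir222 in 5 organs. Error bars are the SD between libraries of 1 side implied by the authors' standard errors (n = 6 libraries per organ); Mir222 exceeds Mir221 in brain, and Mir221 exceeds Mir222 in heart, liver and spleen.

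Among microRNA features Mir221 ranked from 61 in kidney to 85 in spleen, and Mir222 from 62 in kidney to 93 in spleen. The rank of Mir221 in brain was 81 and that of Mir222 was 74, so the pair had its highest share in brain without its highest rank. The order of the organs rested on the scaling for both precursors, and the gaps in standard errors given above hold for the shares only. With the 3 most abundant features of each organ left out of the total, or with median-of-ratios scaling over features of all organs, Mir221 was highest in kidney and not in brain. With median-of-ratios scaling liver also lay above brain, and spleen was lowest. Mir222 was highest in brain under all 4 scalings tried, with a span that ran from 3.44-fold to 9.46-fold. With median-of-ratios scaling, however, kidney came close to brain for Mir222, and heart was lowest in place of liver. The log2 level of Mir222 against the mean of the 5 organs was then 1.02 in brain, 0.984 in kidney, -0.633 in liver and -0.766 in heart.

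The vessel markers did not follow the same order. Mir126a, the microRNA of endothelial cells, stood at 6559 ppm in brain, 27911 ppm in kidney, 14043 ppm in spleen, 53083 ppm in heart and 18040 ppm in liver, so the organ with the highest share of the pair had the lowest share of Mir126a. The smooth muscle microRNAs Mir143 and Mir145a together stood at 3.27% in brain, 21.3% in kidney, 25.7% in spleen, 19.6% in heart and 5.69% in liver. Mir144, the red cell microRNA with reads, stood at 71.3 ppm in brain and at 808 to 2281 ppm elsewhere. The part of cell makeup in the levels of the pair was not tested, and in whole organs fewer cells of a type and less RNA per cell cannot be told apart.

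The balance of the pair differed between organs more than its spread. The ratio of Mir221 to Mir222, which no scaling between tables can move, was 0.634 in brain, 1.05 in kidney, 1.39 in spleen, 1.77 in heart and 2.43 in liver. Mir221 made up 38.8% of the reads of the pair in brain, 51.3% in kidney, 58.1% in spleen, 63.8% in heart and 70.9% in liver. Thus 2 hairpins of 1 transcript changed places in reads, with Mir222 ahead in brain and Mir221 ahead in liver, heart and spleen. Reads were not calibrated to molecules, so which member is ahead holds for reads only. The ratio in liver was 3.84 times that in brain (95% interval 2.60 to 5.68), a log2 gap of 1.94 with a standard error of 0.29. This standard error treats the 2 precursors as independent within a library, and it would be smaller where they rise and fall together. Heart exceeded brain 2.78-fold (95% interval 1.98 to 3.91), spleen exceeded brain 2.19-fold (1.56 to 3.08) and kidney exceeded brain 1.66-fold (1.09 to 2.53). Liver exceeded kidney 2.31-fold (1.51 to 3.55) and spleen 1.75-fold (1.24 to 2.48), and heart exceeded kidney 1.68-fold (1.15 to 2.46). The intervals of the other 3 of 10 comparisons, all between neighbours in the order, included 1. They were liver over heart at 1.38-fold (0.975 to 1.95), heart over spleen at 1.27-fold (0.953 to 1.70) and spleen over kidney at 1.32-fold (0.902 to 1.93). These intervals are not adjusted for the 10 comparisons. They also treat the organs as independent, although the organs come from the same mice.

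**Figure D2:**
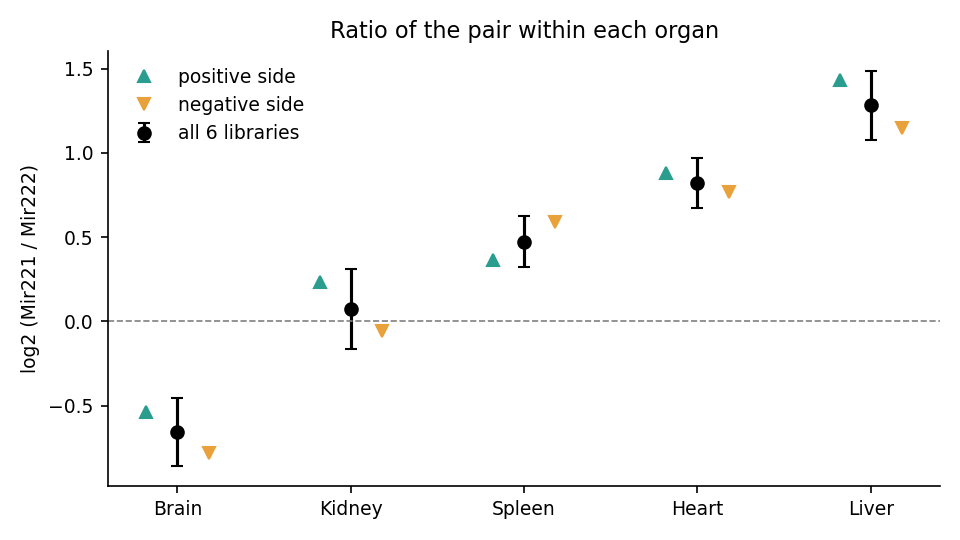
Log2 ratio of Mir221 to Mir222 (vertical axis) in the 5 organs, ordered by the ratio; black points are the ratio of the deposited means of 6 libraries with 1 standard error on either side, and triangles are the ratio of the means of the positive and the negative side. The dashed line marks equal reads of both; brain lies below it at -0.66, kidney near it at 0.073 and liver highest at 1.28, and both sides give the same order of organs.

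The 2 sides were alike in this order. On the positive side the ratio was 0.687 in brain, 1.18 in kidney, 1.29 in spleen, 1.84 in heart and 2.70 in liver. On the negative side it was 0.582 in brain, 0.961 in kidney, 1.50 in spleen, 1.71 in heart and 2.22 in liver. The order of the 5 organs was thus the same in the means of both genotypes.

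Other microRNA pairs, listed as sharing 1 transcript, gave a measure for this range. The positions of their members were not checked here. Of 22 such pairs that were listed, 18 had a mean of at least 10 for both members in all organs, 7 with single-copy members and 11 with a member that has a numbered copy elsewhere, whose reads may be split between copies. The ratio ranged over the organs by 1.49-fold to 21.7-fold in these pairs, with a median of 2.62-fold, and 4 of the 18 ranged more widely than the 3.84-fold of Mir221 and Mir222. Among the single-copy pairs 1 was wider, Mir200c and Mir141 of epithelia at 4.65-fold. Mir132 and Mir212, which neuronal activity induces, had the narrowest range, 1.49-fold, and Mir143 and Mir145a ranged 2.50-fold. Mir193b and Mir365-2 had the widest at 21.7-fold, with Mir365-2 among those that have a copy. The list may cross the pairing of the Mir193 and Mir365 genes, so this value may not be that of 1 transcript. The next widest was Mir15b and Mir16-2 at 7.98-fold. The single-copy pairs leave these out, and their median was 2.66-fold. The range of Mir221 and Mir222 lay in the upper part of this list.

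**Figure D3:**
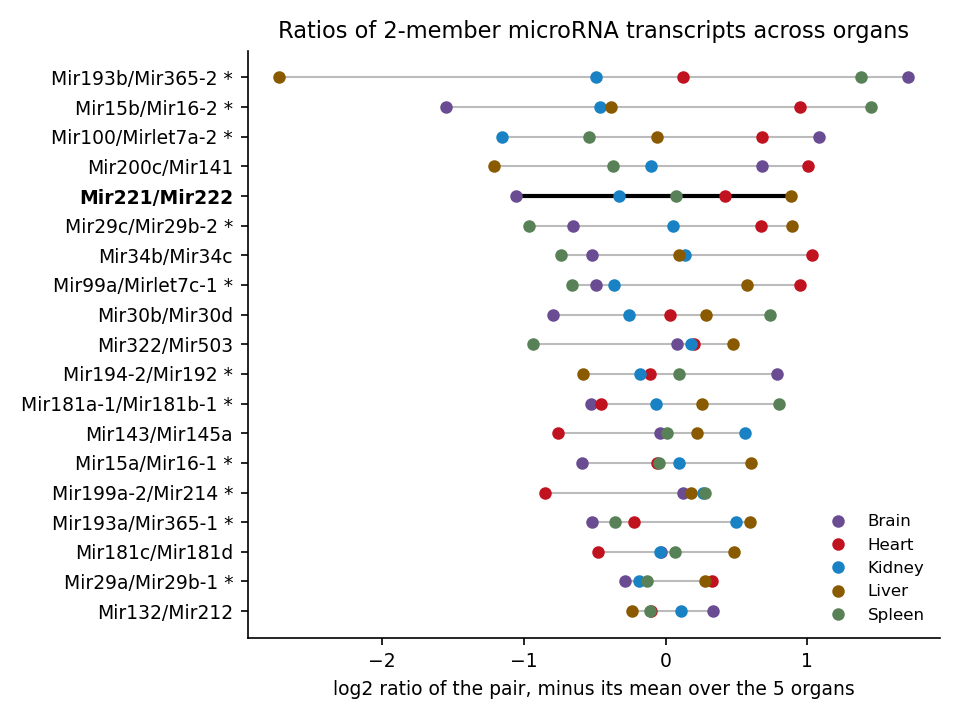
Log2 ratio of the members of 19 microRNA pairs, listed as sharing 1 transcript, in each organ, minus the mean of the pair over the 5 organs (horizontal axis). Pairs are ordered by range, and coloured points are organs. An asterisk marks pairs with a member that has a copy elsewhere; Mir221 and Mir222, in bold, have the fifth widest range.

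Neither precursor passed the test between the genotypes in any organ. In the authors' deposited tables all 10 contrasts of the pair had a DESeq2 adjusted p from 0.668 to 1.00 and an unadjusted p from 0.173 to 0.999. Features past an adjusted p of 0.05 made up 0% of those tested in brain, 0% in kidney, 0% in spleen, 1.13% in heart and 0.229% in liver. Features past an unadjusted p of 0.05 made up 2.23%, 4.5%, 3.48%, 5.33% and 3.9% in the same order. Of the 10 contrasts of the pair, 0 were past either threshold. The mean of each side follows from the deposited mean and fold change, and it is given first in each organ.

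In brain Mir221 averaged 22331 normalized counts (positive side) and 19394 (negative side), and the authors' deposited table gives a log2 fold change of 0.20 ± 0.32 (SE). Mir222 averaged 32496 (positive side) and 33308 (negative side), and the authors' deposited table gives a log2 fold change of -0.036 ± 0.24 (SE). The 95% intervals of the fold ran from 0.741 to 1.79 for Mir221 and from 0.705 to 1.35 for Mir222. The fitted spread between libraries of a side was 27.5% of the mean for Mir221 and 20.3% for Mir222, larger than the differences of the means.

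In heart both were lower on the positive side, and neither passed the test. Mir221 averaged 5511 normalized counts (positive side) and 6298 (negative side), and the authors' deposited table gives a log2 fold change of -0.19 ± 0.20 (SE). Mir222 averaged 2997 (positive side) and 3692 (negative side), and the authors' deposited table gives a log2 fold change of -0.30 ± 0.22 (SE), with the smallest p of the 10, 0.173 (DESeq2 adjusted p 0.668). The 95% intervals ran from 0.665 to 1.15 for Mir221 and from 0.601 to 1.10 for Mir222, so they did not extend to a 2-fold change in either direction. The spread between libraries was 17.0% of the mean for Mir221 and 18.7% for Mir222, lower than in brain, kidney or liver.

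In kidney Mir222 had the largest log2 fold change of the pair, -0.45 ± 0.36 (SE; DESeq2 adjusted p 0.975), in the authors' deposited table. It averaged 20247 normalized counts (positive side) and 27606 (negative side), and the 95% interval of the fold ran from 0.448 to 1.20. Mir221 averaged 23797 (positive side) and 26524 (negative side), and the authors' deposited table gives a log2 fold change of -0.16 ± 0.30 (SE). The spread between libraries was widest here for Mir222, at 30.8% of the mean, and 25.8% for Mir221.

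In liver Mir221 averaged 9868 normalized counts (positive side) and 10023 (negative side), and the authors' deposited table gives a log2 fold change of -0.022 ± 0.25 (SE). Mir222 averaged 3653 (positive side) and 4518 (negative side), and the authors' deposited table gives a log2 fold change of -0.31 ± 0.32 (SE). The 95% intervals of the fold ran from 0.697 to 1.39 for Mir221 and from 0.520 to 1.26 for Mir222. Depth differed between the sides in liver, where the recovered size factors, which scale with the depth of a library, were at most 0.729 for the positive side and at least 1.45 for the negative side. The part of depth in these values was not tested, and in the other 4 organs the size factors of the sides overlapped.

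In spleen Mir221 averaged 6973 normalized counts (positive side) and 6972 (negative side), and the authors' deposited table gives a log2 fold change of 0.00024 ± 0.21 (SE). Mir222 averaged 5411 (positive side) and 4634 (negative side), and the authors' deposited table gives a log2 fold change of 0.22 ± 0.21 (SE; DESeq2 adjusted p 0.988). The 95% intervals ran from 0.748 to 1.34 for Mir221 and from 0.875 to 1.56 for Mir222. Spleen was the only organ of the 5 in which Mir222 had a positive value. Spleen and brain hold no library of the second batch, while heart, kidney and liver hold a WT library each.

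**Figure D4:**
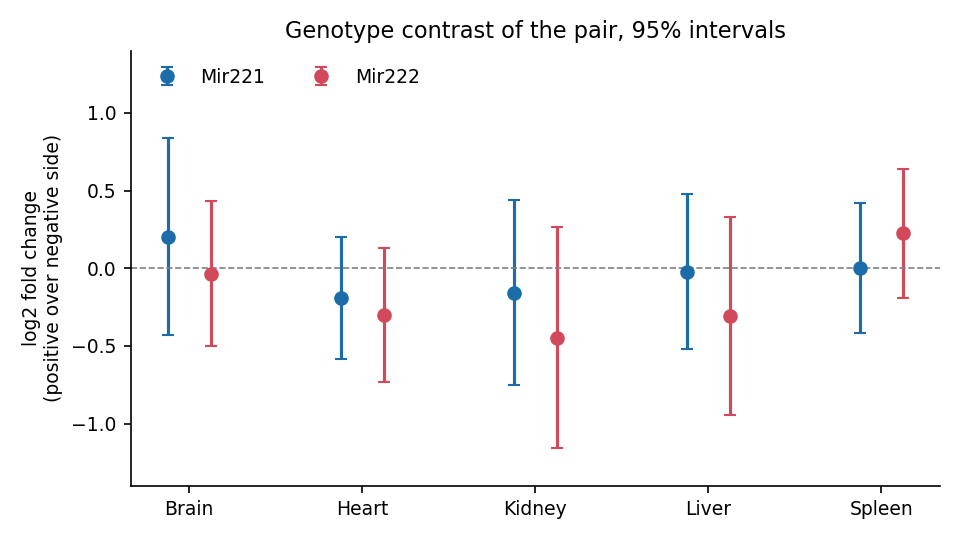
Log2 fold change of Mir221 and Mir222 between the genotypes (vertical axis, positive over negative side) in the 5 organs, from the authors' deposited tables. Points are the fold changes and bars their 95% intervals from the deposited standard errors (3 libraries a side); all 10 intervals include 0.

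Summed over the pair, the positive side held 54827 normalized counts in brain against 52702 for the negative side. The same sums were 44044 against 54129 in kidney, 12384 against 11606 in spleen, 8507 against 9990 in heart and 13521 against 14541 in liver. The ratio of these sums lay between 0.814 in kidney and 1.07 in spleen. The precision behind this was that of well-measured features. The standard errors of the pair ran from 0.20 to 0.36 in log2 units, and the median of all features whose mean reached 1000 ran from 0.23 in heart to 0.37 in liver.

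The 2 precursors were read from the same libraries, and the difference of their fold changes lay within its error in each organ. The log2 fold change of Mir221 minus that of Mir222 was 0.24 in brain, 0.29 in kidney, -0.22 in spleen, 0.11 in heart and 0.28 in liver. Each of these was smaller than its standard error, which was 0.30 to 0.47 if the precursors are taken as independent. In the 18 other pairs the median absolute difference was 0.26 in brain, 0.24 in kidney, 0.22 in spleen, 0.19 in heart and 0.17 in liver. A larger difference than that of Mir221 and Mir222 was found for 10 of the 18 in brain, 8 in kidney, 8 in spleen, 14 in heart and 5 in liver. These 18 include the pairs of Mir193 and Mir365 genes, whose pairing was not checked. In kidney the widest was 1.86, for Mir99a minus Mirlet7c-1, and in brain the narrowest was 0.0039, for Mir132 minus Mir212.

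The genotype contrast of the pair was not shown to differ between organs. Over the 10 organ pairs and both precursors, the difference of the log2 fold changes, taken over its combined standard error, had an adjusted p of 0.989 or more when adjusted over all features of an organ pair. In 9 of these organ pairs 0% of the features passed, and in kidney minus liver 0.134% did. Kidney minus spleen gave the largest difference, -0.67 for Mir222 (95% interval -1.50 to 0.15), and heart minus spleen gave -0.52 (95% interval -1.13 to 0.08; unadjusted p = 0.0872, DESeq2 estimates). For Mir221 the largest was brain minus heart at 0.40 (95% interval -0.35 to 1.14). The organs come from the same mice, which this calculation does not use, and these 3 intervals reach past 1 log2 unit. In each of these 3 differences 1 organ holds a WT library of the second batch and the other organ does not. The part of batch in them cannot be told from that of genotype.

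Other microRNAs on the X chromosome were described because Ftsj1 lies there too. Of 88 such precursors besides the pair, 65 to 70 had a fold change in an organ, and 0 passed an adjusted p of 0.05 in any of the 5. The unadjusted threshold was passed by 3 in brain, 1 in kidney, 0 in spleen, 2 in heart and 4 in liver, or 4.48%, 1.49%, 0%, 2.86% and 5.97% of those tested, against the shares of all features given above. Over those whose mean reached 10, the median log2 fold change was -0.048 in brain, -0.13 in kidney, -0.15 in spleen, -0.060 in heart and -0.13 in liver, beside medians of all such features of -0.0028, -0.033, -0.00025, -0.012 and 0.0074. The medians of all microRNA features with such a mean were -0.0082, -0.058, -0.032, -0.061 and -0.016 in the same order. In heart the X-linked median was thus close to that of all microRNAs. The most abundant were Mirlet7f-2 and Mir98 of the let-7 family, which is known to restrain growth. Mirlet7f-2 and other listed precursors with a numbered copy may hold reads from a copy outside the X chromosome. Mirlet7f-2 had log2 fold changes of -0.49 ± 0.28 in brain, -0.60 ± 0.40 in kidney, -0.19 ± 0.23 in spleen, -0.46 ± 0.27 in heart and -0.11 ± 0.36 in liver (SE) in the authors' deposited tables, none past the threshold.

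The microRNAs of angiogenesis and the vessel wall, the setting in which the pair is best known, gave 0 calls at an adjusted p of 0.05 in each organ. Of 30 listed, 28 were matched by symbol and 24 or 25 had a fold change. The unadjusted threshold was passed by 1 in brain, 0 in kidney, 2 in spleen, 1 in heart and 1 in liver, or 4.17%, 0%, 8%, 4% and 4% of those tested, beside 2.23%, 4.5%, 3.48%, 5.33% and 3.9% of all features. Each had a positive sign, as did 32 of the 42 such features of all kinds in spleen, 12 of 23 in brain, 37 of 59 in heart and 15 of 34 in liver. They were Mir130a in brain (log2 0.62), Mir19b-1 in heart (log2 0.82) and in spleen (log2 0.77), Mir296 in liver (log2 2.31) and Mir132 in spleen (log2 0.62), in the authors' deposited tables. The list's median log2 fold change over members whose mean reached 10 was 0.058 in brain, 0.15 in kidney, -0.059 in spleen, 0.076 in heart and -0.019 in liver. Mir143, known for keeping smooth muscle cells contractile and the most abundant of the list in 4 organs, had log2 fold changes between -0.47 ± 0.30 in spleen and 0.63 ± 0.45 in kidney (SE) in the authors' deposited tables.

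The features with the pattern across organs most like the summed pair were Mir582, Mir218-2, Mir872, Mir34c and Mir187. Their log2 shares correlated with that of the pair over the 5 organs at Pearson r of 0.985, 0.980, 0.975, 0.962 and 0.957, out of 324 features compared, and each point is 1 table with its own normalization. Likeness was taken on shares only, and other scalings, which moved the order of organs for the pair, were not tried for it. A correlation takes no account of the size of a change. Mir582 stood at 167 ppm in brain and 1.86 ppm in liver, and Mir218-2 at 5165 ppm in brain and 22.3 ppm in liver, far wider spans than that of the pair. Mir872 was the closest also in the size of its changes between organs, with 506 ppm in brain, 320 ppm in kidney, 219 ppm in spleen, 151 ppm in heart and 121 ppm in liver. By the size of the changes the next were Mir103-1, Mir1981, Mir6952 and Mir26a-1, so 1 of the first 5 was shared by both measures. Neither measure compares levels: in brain Mir6952 stood at 3.03 ppm and Mir26a-1 at 62071 ppm.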

How the data were processed

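Phenol-extracted RNA of each organ went into NEXTflex small RNA libraries, per the labels' protocols. The authors counted with featureCounts of Subread 2.0.3 on GRCm39 and ran DESeq2, per the submitters' processing notes. An aligner is not given in the sources used here, nor is an annotation. The deposited mean is a signal, counts divided by size factors and averaged over the 6 libraries of an organ, per the file headers. The deposited fold change and standard error are on the log2 scale, the deposited Wald statistic is a score, and each deposited p-value, raw or adjusted, is that of the statistic, per the file headers.

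Members and lists were chosen with earlier results of these data known. Design had assumed that reads per library might be recovered for the pair; its counts were too high for that, so the authors' test was used at an adjusted p of 0.05. Size factors were recovered from the means under 1 (227 to 355 per organ, all explained at a tolerance of 1e-11). Features with a mean of 4 to 9 were split into whole reads at a relative tolerance of 3e-14. In all 26 to 78 of them checked per organ, a model with genotype as its only term gave the deposited log2 fold change within 0.001, so no batch or litter term was in it. Side means were solved from the deposited mean and fold change. This takes the fitted mean of a side as its average, which at these counts changes library weights by at most 1.58%. The spread between libraries was solved from the standard error and includes the sharing of information between features in the authors' DESeq2 fit. Standard errors of log2 levels were taken as 0.5 times that of the fold change.

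Named features followed a rule: the pair, the 5 features most like it, the called members of a list (with none, its 2 most abundant), and the pairs with extreme differences. Features with an unadjusted p under 0.05 in the vessel list, Mir200c and Mir141, and those closest in the size of their changes were chosen after their values were seen. Unused per-sample columns numbered 0. Sequences are from RefSeq on GRCm38.p6, where both members matched. Of the microRNA symbols, 15 had no chromosome in that table and were not placed. The solving of side means and the test of differences between organs were tried on simulated data. The ratio intervals and the gaps between levels were not. The software was Python 3.11.15, numpy 2.4.6, pandas 2.3.3 and scipy 1.17.1. Replicates are mice, 3 per genotype, and the number of libraries limits the precision. Alternatives changed the adjustment, the scaling of levels, the length correction, the minimum mean and the measure of likeness.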

Additional observations from a re-analysis of the deposited data

How the results depend on the processing

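No call depended on the adjustment: 0 of the pair passed in any organ with p-values adjusted over all features, over those with a mean of at least 10 or over microRNA symbols, where the smaller adjusted p of the pair in an organ ran from 0.703 to 0.994, and 0 differences between organs passed among features with a mean of at least 10 (smallest adjusted p 0.837). Levels moved with the scaling. With median-of-ratios scaling the log2 level against the mean of the 5 organs was -0.037 for Mir221 and 1.02 for Mir222 in brain, and 0.25 for Mir221 and -0.63 for Mir222 in liver. Without the 3 most abundant features it was 0.25 for Mir221 and 1.30 for Mir222 in brain, and -0.29 for Mir221 in liver. Of the first 5 features most like the pair, 1 was shared with the ranking by size of difference and 3 with features of a mean of at least 100. The ratio per base of hairpin was 0.832 times that of counts in each organ, which put kidney at 0.874. No paired analysis was possible because the tables hold no values per animal. Values without single libraries and permutation tests over libraries were not run for the same reason.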
